A study of Mus musculus with 6 samples.

Results

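Genes that carry out fatty acid oxidation, or that are known targets of the lipid-sensing receptor PPARalpha, were followed in liver poly(A) RNA. The 31 genes were chosen by gene symbol as members of the pathway, and each had a row among the 18720 rows of the deposited tables. All 31 passed the filter on low values, a mean of at least 10 over the libraries. They comprise 2 regulators, 16 mitochondrial, 7 peroxisomal and 4 microsomal genes, and 2 genes whose products lie elsewhere.

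The livers came from male C57BL/6 mice that were 1 year old when placed on a high-fat diet. For 12 weeks they received R159, a compound given only under that code, or vehicle by intraperitoneal injection, 2 times a week. The diet was thus common to both groups, and no group on another diet was analysed here. There were 3 R159 and 3 vehicle libraries, and the labels leave unsaid whether every library is its own animal. The p-values therefore reflect spread among libraries, some of which may be technical. The series title ties the compound to a non-canonical branch of signalling from the cytokine receptor subunit gp130, and the comparison asks how liver transcripts differ between compound and vehicle.

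Fatty acids are broken down in hepatocytes in several compartments. Mitochondria take up activated long-chain fatty acids through the carnitine shuttle and remove acetyl units in a repeating cycle, peroxisomes shorten very long and branched chains, and cytochromes P450 of the Cyp4a group in the endoplasmic reticulum (the microsomal fraction) oxidise the far end of the chain. PPARalpha, a nuclear receptor activated by fatty acids, pairs with RXR and binds paired half-sites of the DR1 type near many of these genes. It is known as the main inducer of the pathway in the fasting mouse liver.

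Estimated depth was 51260000 to 55740000 reads in the R159 libraries and 65960000 to 76690000 in the vehicle libraries. R159 replicate 2 correlated least with vehicle (r over log2 values 0.9096 to 0.9179), while vehicle libraries correlated with each other at 0.9786 to 0.9857. R159 libraries correlated with each other at only 0.9389 to 0.9494, and R159 replicates 1 and 3 correlated with vehicle at 0.9366 to 0.9417. Across 11179 coding genes with a mean of at least 100, the log2 fold change fell with transcript length (rho = -0.5, Spearman, a correlation over genes and not over independent replicates). Hepatocyte markers were high in every library (6 of 6 with a row, summed values 4288722 to 7030105 in R159 and 3487810 to 5238432 in vehicle), and 1 of them, Hnf4a, was called lower (-0.67). The uncalled hepatocyte markers gave log2 fold changes of 0.28 (Alb), 0.78 (Ttr), 1.36 (Apoa1), 0.36 (Serpina1a) and -0.48 (Cps1). Of 5 macrophage markers 2 were called lower, Adgre1 and Csf1r (summed range 6487 to 8998 against 8119 to 13016). The uncalled macrophage markers went both ways, with log2 fold changes of -0.69 (Cd68), 0.20 (Clec4f) and 0.25 (Vsig4). Of 4 stellate and 4 cholangiocyte markers 1 each was called, Reln lower (-1.16, summed range 8325 to 17842 against 9353 to 13977) and Krt7 higher (1.32, 454 to 1192 against 617 to 750). The uncalled stellate markers gave 0.28 (Dcn), -0.34 (Lrat) and 0.40 (Des). The uncalled cholangiocyte markers gave 0.98 (Krt19), -0.67 (Epcam) and -0.94 (Sox9). Of 3 erythroid markers 2 were called higher (18982 to 23737 against 7482 to 9043), and none of 4 sinusoidal endothelial, 3 lymphocyte and 1 adipocyte marker with a row was called by limma (1 with an unadjusted p under 0.05, Clec4g). The sinusoidal endothelial markers went both ways, at 0.58 (Clec4g), -0.35 (Stab2), -1.17 (Lyve1) and -0.49 (Pecam1). The part of length and of these cell types in the results below was not tested except where a length-corrected value is given. In whole tissue, fewer cells of a type and less RNA per cell cannot be told apart.

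Values below are normalised estimated counts. A log2 fold change is R159 minus vehicle on the log2(value + 1) scale, and a gene is called when limma's Benjamini-Hochberg adjusted p over all 16594 tested genes is under 0.05. Of the 31 genes, 7 were called lower in R159 (22.6%), against 14.2% of all tested genes. The count called higher was 0 by limma (12.8% of all tested genes were called higher). An unadjusted limma p under 0.05 was found for 15 members, among them all that were called. The share of all tested genes under that p was not counted, so no excess among the members can be read from the 15. The 7 were Ppara, Hadha, Hadhb, Acot3, Cyp4a10, Cyp4a31 and Vnn1. The log2 fold change was below 0 for 27 of 31 members, with a median of -0.41, against 50.0% of all tested genes and a median of 0.0. In 15 members every R159 library lay below every vehicle library (48.4%, against 23.6% of tested genes), and in 2 members, Eci1 and Eci2, every R159 library lay above (22.5% of tested genes). Over all genes 2354 were called lower and 2125 higher, and this split depended on scaling: 2913 and 1173 with libraries scaled to equal totals, 1729 and 2646 with equal upper quartiles. Of the members, 15 and 4 were called lower under these scalings. Without vehicle replicates 1, 2 and 3 in turn, 3, 4 and 2 members were called lower, and Ppara and Cyp4a10 were among them each time. Over all genes, 1252, 923 and 1117 were called lower in these fits.

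**Figure D1:**
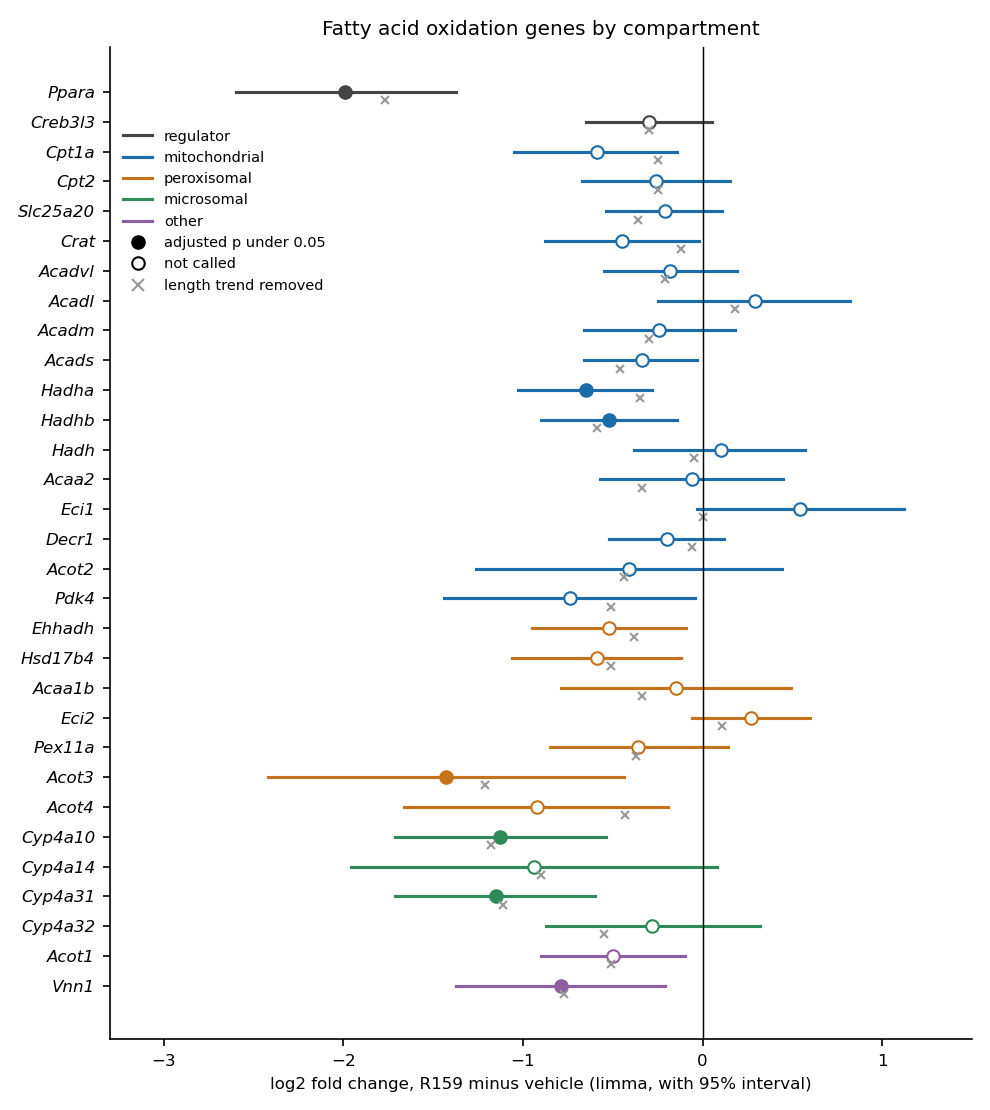
Log2 fold change (R159 minus vehicle, x axis) of each of the 31 genes (y axis) with its 95% limma interval, coloured by compartment; filled circles mark adjusted p under 0.05 and crosses the value after the length trend was removed. Ppara lies farthest to the left at -1.99, and the mitochondrial genes lie between -0.74 and 0.54.

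The members were unequal in length, and their fold changes followed it: across the 31 genes Spearman's rho between log2 fold change and the length of the longest coding transcript was -0.726. After the length trend of all genes was subtracted from each library, 5 members were called lower (7.8% of all genes were) and 0 higher (11.7%), with a median of -0.37 and 28 values below 0. Of the 7 genes, Ppara, Hadhb, Cyp4a10 and Cyp4a31 were among these 5. Acads was the fifth, and Hadha, Acot3 and Vnn1 were no longer called.

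**Figure D2:**
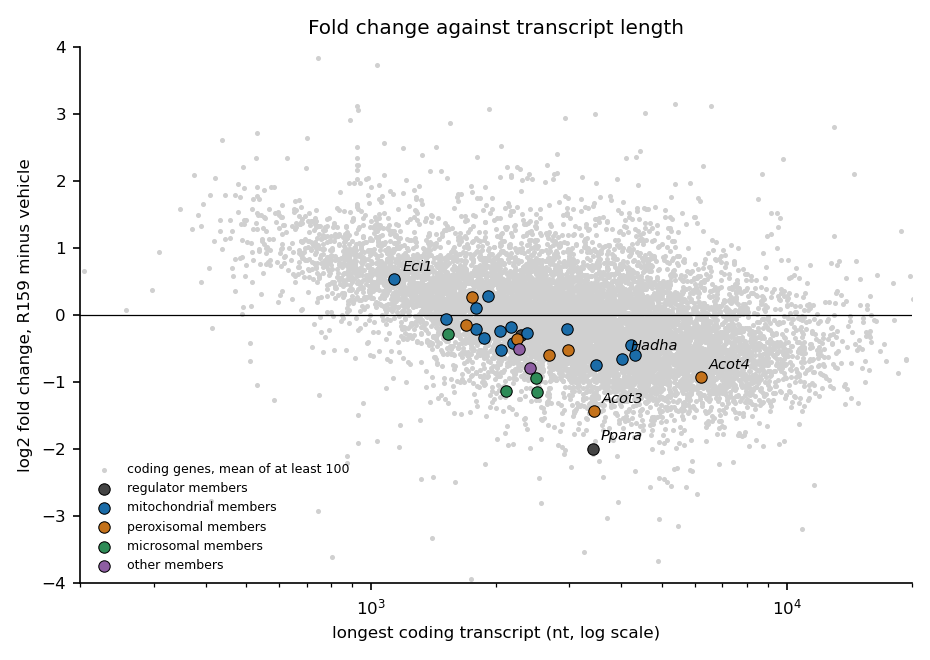
Log2 fold change (R159 minus vehicle, y axis) against the longest coding transcript in nt (x axis, log scale) for 11179 coding genes in grey, 16 of which fall outside the axes, and for the 31 members in colour by compartment. Eci1, the shortest member, has the highest value (0.54), and Ppara lies lower than other members of similar length.

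Among the regulators, Ppara was 2311, 1132 and 1153 with R159 (replicates 1, 2 and 3, the order used throughout) and 5293, 5290 and 6707 with vehicle. Every R159 library was below every vehicle library, with replicate 1 the highest of the R159 libraries. The mean fell from 5763 ± 817 (SD, n = 3) to 1532 ± 675 (SD, n = 3), a log2 fold change of -1.99 (SE 0.27, limma adjusted p = 0.0036), or 0.252 of the vehicle level. The call held in all 19 alternative fits tried, with adjusted p from 0.0011 to 0.0247, and the value after length correction was -1.77 (adjusted p = 0.0048). Creb3l3 encodes a membrane-bound transcription factor of the liver that acts with PPARalpha on fasting genes. It was 10569, 12437 and 12412 with R159 against 14288, 15355 and 13781 with vehicle. The groups did not overlap, but the difference was small beside that of Ppara (-0.30, 95% interval -0.65 to 0.05, limma adjusted p = 0.181).

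**Figure D3:**
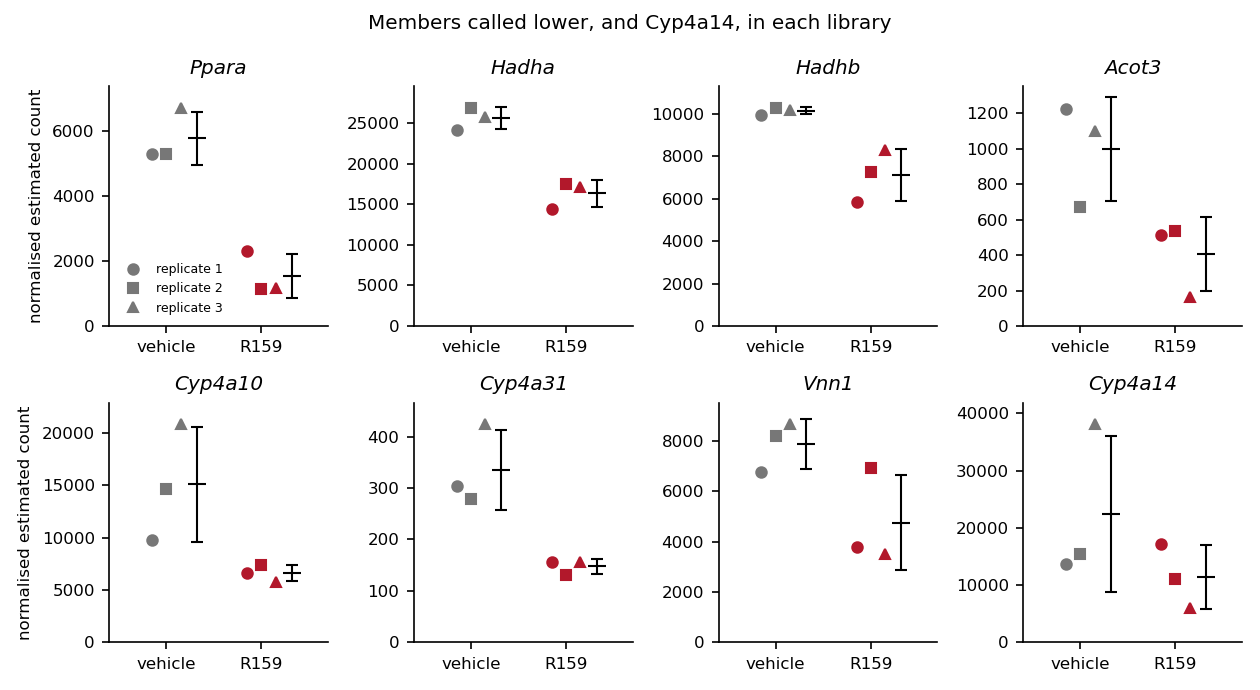
Normalised estimated count (y axes, from 0) in each vehicle (grey) and R159 (red) library for the 7 genes called lower and for Cyp4a14; symbols mark replicate numbers, and bars give mean ± SD of 3 libraries. For Ppara, Hadha, Hadhb, Acot3, Cyp4a10 and Cyp4a31 the groups do not overlap, while for Vnn1 and Cyp4a14 they do.

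In mitochondria, the trifunctional protein was the site of both calls. Hadha and Hadhb encode its alpha and beta subunits, which carry out the last steps of the cycle for long chains. In the reference they lie head to head, with start sites 273 bases apart. The 300 bases before and around the Hadhb start are shown because the promoter windows of both genes cover most of this stretch. They are RefSeq sequence of build GRCm38.p6, chr5:30155003-30155302, plus strand, with the 228 bases that also belong to the Hadha promoter window in capitals; the window holds 24 CG dinucleotides, against a median of 7 in all promoter windows.
Hadha and Hadhb: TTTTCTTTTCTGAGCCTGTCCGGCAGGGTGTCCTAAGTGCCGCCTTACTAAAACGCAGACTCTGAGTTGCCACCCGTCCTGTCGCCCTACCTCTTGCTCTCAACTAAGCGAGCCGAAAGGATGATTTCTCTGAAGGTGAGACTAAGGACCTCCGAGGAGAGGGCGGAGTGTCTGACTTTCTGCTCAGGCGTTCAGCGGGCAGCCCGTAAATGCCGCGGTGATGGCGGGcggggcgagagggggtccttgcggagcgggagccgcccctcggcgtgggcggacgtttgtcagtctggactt

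Hadha was 14411, 17445 and 17151 with R159 against 24196, 26870 and 25688 with vehicle. Hadhb was 5852, 7240 and 8296 with R159 against 9965, 10287 and 10188 with vehicle. For each gene all R159 libraries were below all vehicle libraries, and the order of the R159 libraries differed between the genes. The log2 fold change of Hadha was -0.65 (SE 0.17, limma adjusted p = 0.0215) and that of Hadhb -0.52 (SE 0.17, limma adjusted p = 0.0469). Hadha, of 4017 nt, gave -0.35 after length correction (adjusted p = 0.138), and Hadhb, of 2048 nt, gave -0.59 (adjusted p = 0.0175). Leaving out a vehicle library (replicate 1, 2 or 3) ended both calls, with limma adjusted p of 0.0587, 0.109 and 0.0722 for Hadha and 0.115, 0.158 and 0.125 for Hadhb. Hadhb was also not called without R159 replicate 1 (0.0603), without R159 replicate 2 (0.0735), with the replicate block (0.0652), with upper-quartile scaling (-0.41, 0.109) or without the empirical Bayes trend (0.0925). Of its 50-base stretches 62.4% also occur in the genes Gm13910 and Gm9108, not analysed here, so reads could be divided among them.

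The carnitine shuttle had 4 genes, all with a log2 fold change below 0, and limma called 0 of them (2 with an unadjusted p under 0.05, Cpt1a and Crat). Cpt1a encodes the enzyme that commits fatty acids to mitochondrial import. It was 19360, 19534 and 18163 with R159 against 25864, 24524 and 37123 with vehicle. The groups did not overlap, and vehicle replicate 3 was far above the other vehicle libraries. Its log2 fold change was -0.59 (95% interval -1.05 to -0.14, limma adjusted p = 0.0562), and removing the length trend left -0.25 (adjusted p = 0.323). Slc25a20, the carrier that exchanges acylcarnitine across the inner membrane, gave -0.21 (adjusted p = 0.297) with groups that did not overlap, and Cpt2, the inner-membrane transferase, gave -0.26 (adjusted p = 0.308). Crat, which moves acetyl groups on and off carnitine, gave -0.45 (adjusted p = 0.108). The kit keeps strand, but whether counting used it is not given, and Crat, Acadvl, Acaa1b, Eci2, Pex11a, Acot3 and Acot4 each overlap a gene on the opposite strand that has its own row.

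The chain-length-specific acyl-CoA dehydrogenases open each turn of the cycle, and limma called none of these 4 genes (1 with an unadjusted p under 0.05, Acads). Acads, for short chains, was 8632, 8243 and 8619 with R159 against 10388, 10853 and 11124 with vehicle. Its libraries varied little within a group and the groups did not overlap (-0.34, SE 0.14, limma adjusted p = 0.0972; with the length trend removed -0.46 and 0.0402). Acadvl (very long chains) and Acadm (medium chains) gave -0.18 and -0.24 (adjusted p = 0.433 and 0.366). Acadl (long chains) gave 0.29, with 22781 in R159 replicate 2 against 12336 and 14368 in the other R159 libraries (adjusted p = 0.388), and 0.03 without that library. Among the later enzymes Hadh, the dehydrogenase for short and medium chains, gave 0.10 (adjusted p = 0.751) and Acaa2, the thiolase, gave -0.06 (adjusted p = 0.857). For both the sign changed in some alternative fits: Hadh was below 0 with libraries scaled to equal totals, after length correction and without R159 replicate 2, and Acaa2 was above 0 with upper-quartile scaling and without R159 replicate 1.

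The auxiliary enzymes that handle unsaturated fatty acids did not share a direction. Eci1, the mitochondrial enoyl-CoA isomerase, was 8350, 18004 and 11448 with R159 against 8264, 8093 and 8309 with vehicle. R159 replicate 2 was more than 1.5 times as high as the next library, and R159 replicate 1 lay barely above the vehicle range. The log2 fold change was 0.54 (95% interval -0.03 to 1.12, limma adjusted p = 0.139), 0.80 without R159 replicate 1 (adjusted p = 0.0228), 0.25 without R159 replicate 2 (adjusted p = 0.331), and 0.00 with the length trend removed (its transcript is 1137 nt). Decr1, the dienoyl-CoA reductase, gave -0.20 (adjusted p = 0.324).

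Pdk4 and Acot2 are the remaining mitochondrial members. Pdk4 encodes a kinase that shuts off pyruvate dehydrogenase and spares glucose. It was 589, 358 and 319 with R159 against 936, 472 and 711 with vehicle, with overlap (-0.74, limma adjusted p = 0.102). Without R159 replicate 1 it was -1.01 (adjusted p = 0.0341), and with the replicate block -0.74 (adjusted p = 0.0489). These were the 2 of the 19 alternative fits that called Pdk4. It was -0.51 both with the length trend removed (adjusted p = 0.263) and without vehicle replicate 1 (adjusted p = 0.31). Acot2, a mitochondrial acyl-CoA thioesterase, was 545, 1415 and 472.5 with R159 against 1143, 967 and 772 with vehicle. R159 replicate 2 alone was above the vehicle range, and without it the log2 fold change went from -0.41 (adjusted p = 0.441) to -0.90 (adjusted p = 0.0268). Without R159 replicate 1 it was -0.21, without R159 replicate 3 -0.11 and without vehicle replicate 1 -0.27 (adjusted p = 0.723, 0.853 and 0.693).

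Of the 7 peroxisomal genes 1, Acot3, was called lower. Acot3 encodes a thioesterase that releases free fatty acids from long-chain acyl-CoA. It was 515, 535 and 166 with R159 against 1226, 669 and 1101 with vehicle, so that the groups did not overlap and R159 replicate 3 was the lowest. The log2 fold change was -1.43 (SE 0.44, limma adjusted p = 0.0399), and it was not called without R159 replicate 3 (-0.88, adjusted p = 0.0548), without vehicle replicate 1 (-1.26, 0.117), without vehicle replicate 3 (-1.34, 0.114) or after length correction (-1.21, 0.0872). Upper-quartile scaling (-1.32, 0.0533) and a fit without the empirical Bayes trend (0.0979) also ended the call. Its neighbour Acot4, a thioesterase for dicarboxylic acyl-CoA, gave -0.92 (adjusted p = 0.0629), and -1.22 without R159 replicate 1 (adjusted p = 0.022). It gave -0.53 without R159 replicate 3 (adjusted p = 0.127) and, at 6203 nt, -0.43 with the length trend removed (adjusted p = 0.342). Acot1, the cytosolic thioesterase of the same chromosome 12 cluster, was 675, 670 and 775 with R159 against 954, 1183 and 883 with vehicle, with no overlap (-0.50, adjusted p = 0.0627). Of the 50-base stretches of Acot1 33.2%, of Acot2 27.7%, of Acot3 19.5% and of Acot4 4.87% also occur in another annotated gene, so the values of these thioesterase genes are uncertain where reads were divided among copies.

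The other peroxisomal members were not called. Hsd17b4 encodes the D-bifunctional protein, which acts on very long and branched chains and bile acid precursors. It was 21114, 32699 and 23474 with R159 against 36272, 39802 and 38398 with vehicle, without overlap, and R159 replicate 2 was nearest to the vehicle libraries. Its log2 fold change was -0.59 (95% interval -1.06 to -0.12, limma adjusted p = 0.0635), and -0.78 without R159 replicate 2 (adjusted p = 0.0244). Hsd17b4 gave -0.46 without R159 replicate 1 (adjusted p = 0.109) and -0.51 with the length trend removed (adjusted p = 0.0752). It was called in 4 of the 19 alternative fits. Ehhadh, the L-bifunctional protein and a well known PPARalpha target, was 9261, 12044 and 11579 with R159 against 12851, 16520 and 17872 with vehicle, again without overlap (-0.52, 95% interval -0.95 to -0.09, adjusted p = 0.0698). Pex11a, which promotes peroxisome division, gave -0.36 (adjusted p = 0.255). Acaa1b, a peroxisomal thiolase, gave -0.15 (95% interval -0.79 to 0.49, adjusted p = 0.723), spanning 69639 to 126888 in R159, and its sign turned without R159 replicate 1. Of its 50-base stretches 35.5% are shared with Acaa1a, for which the log2 fold change was 0.14 (adjusted p = 0.517). Eci2, an isomerase found mainly in peroxisomes, was 9521, 10099 and 8862 with R159 against 8157, 8054 and 7347 with vehicle, so every R159 library was higher (0.27, adjusted p = 0.187).

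The microsomal Cyp4a genes lie side by side on chromosome 4, and their copies are close. The coding sequences of Cyp4a10 and Cyp4a31 were 96.6% identical in the reference, those of Cyp4a10 and Cyp4a32 97.2%, and those of Cyp4a10 and Cyp4a14 75.2%. Their first 60 coding bases, from the GENCODE M21 transcripts, show how few positions tell the close copies apart; capitals mark bases that differ from Cyp4a10.
Cyp4a10: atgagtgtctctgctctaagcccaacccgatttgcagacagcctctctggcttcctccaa
Cyp4a31: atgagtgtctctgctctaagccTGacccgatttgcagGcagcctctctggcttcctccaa
Cyp4a32: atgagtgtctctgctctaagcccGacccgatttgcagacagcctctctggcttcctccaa
Cyp4a14: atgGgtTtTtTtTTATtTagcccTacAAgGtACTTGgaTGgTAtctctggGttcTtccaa

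At the read length of 50 bases, 30.5% of the 50-base stretches of Cyp4a10, 21.6% of those of Cyp4a31 and 46.8% of those of Cyp4a32 also occur in another gene with a row, and none of those of Cyp4a14 do (0.0%). How such reads were divided is not given in the sources used here, so the values of Cyp4a10, Cyp4a31 and Cyp4a32 are uncertain. Cyp4a10, an omega-hydroxylase that is among the most responsive PPARalpha targets in mouse, was 6677, 7374 and 5803 with R159 against 9806, 14644 and 20832 with vehicle. Cyp4a31 was 156, 132 and 156 with R159 against 303, 278 and 424 with vehicle. In both genes the R159 libraries were close together and below all vehicle libraries, and vehicle replicate 3 was the highest.

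The log2 fold change was -1.13 for Cyp4a10 (SE 0.26, limma adjusted p = 0.0148) and -1.15 for Cyp4a31 (SE 0.24, limma adjusted p = 0.011), and both calls held with the length trend removed (adjusted p = 0.0158 and 0.0156). Cyp4a31 was not called without vehicle replicate 3 (-0.97, adjusted p = 0.0522), nor Cyp4a10 without the empirical Bayes trend (adjusted p = 0.0504). Cyp4a14 was 17158, 11100 and 5967 with R159 against 13637, 15460 and 38092 with vehicle. One vehicle library, replicate 3, was far above the rest and the groups overlapped (-0.94, 95% interval -1.96 to 0.08, adjusted p = 0.146). The value was -0.48 without that library and -0.54 without R159 replicate 3 (adjusted p = 0.427 and 0.391). Cyp4a32 was 752, 377 and 672 with R159 against 623, 734 and 741 with vehicle (-0.28, adjusted p = 0.456), and its sign turned without R159 replicate 2.

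Vnn1 encodes a pantetheinase anchored at the cell surface and is a PPARalpha target in mouse liver. It was 3789, 6933 and 3524 with R159 against 6744, 8197 and 8647 with vehicle, and R159 replicate 2 lay within the vehicle range. The log2 fold change was -0.79 (SE 0.26, limma adjusted p = 0.0479). It was not called after length correction (-0.77, adjusted p = 0.0514) or without R159 replicate 1 (-0.66, 0.107), R159 replicate 3 (-0.61, 0.133) or any of vehicle replicates 1, 2 and 3 (0.0722, 0.131 and 0.14). Upper-quartile scaling (-0.68, 0.0797) and a fit without the empirical Bayes trend (0.11) ended the call too.

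By compartment, the median log2 fold change was -0.25 for the 16 mitochondrial genes (2 called lower, 12.5%), -0.52 for the 7 peroxisomal genes (1 called lower, 14.3%) and -1.03 for the 4 microsomal genes (2 called lower). The mitochondrial and peroxisomal shares are near the 14.2% of all tested genes. Within a library, the median deviation of the mitochondrial genes from their vehicle means was -0.34, -0.09 and -0.31 in R159 replicates 1 to 3, and -0.04 to 0.02 in vehicle. For the peroxisomal genes it was -0.66, -0.22 and -0.64, against -0.06 to 0.09 in vehicle, and for the microsomal genes -0.65, -0.93 and -1.19, against -0.36 to 0.45. By this median the R159 libraries lay below the vehicle libraries in each compartment. R159 replicate 2 was the nearest to vehicle in mitochondrial and peroxisomal genes but not in microsomal ones. Vehicle medians scatter around 0 because each gene was centred on its own vehicle mean. By summed value per kb, R159 replicate 2 was above every vehicle library in mitochondrial genes (135612 against 116343 to 126303). The same held in peroxisomal genes (101926 against 88761 to 97930). In both, R159 replicates 1 and 3 were below every vehicle library. In microsomal genes the sums were 10593, 8242 and 5644 with R159 against 10641, 13728 and 25792 with vehicle, so R159 replicate 1 lay barely below vehicle replicate 1. Differences between compartments were not tested, and without vehicle replicate 3 the microsomal median was -0.67. The microsomal members are all Cyp4a genes. The 2 called, Cyp4a10 and Cyp4a31, share 50-base stretches, so reads could be divided between them and the 2 calls need not be separate observations. Among the further pathway genes described below, 6 microsomal ones had a median of -0.19 (-0.79 to 0.45, 2 called lower). The 23 further peroxisomal genes had a median of -0.31.

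**Figure D4:**
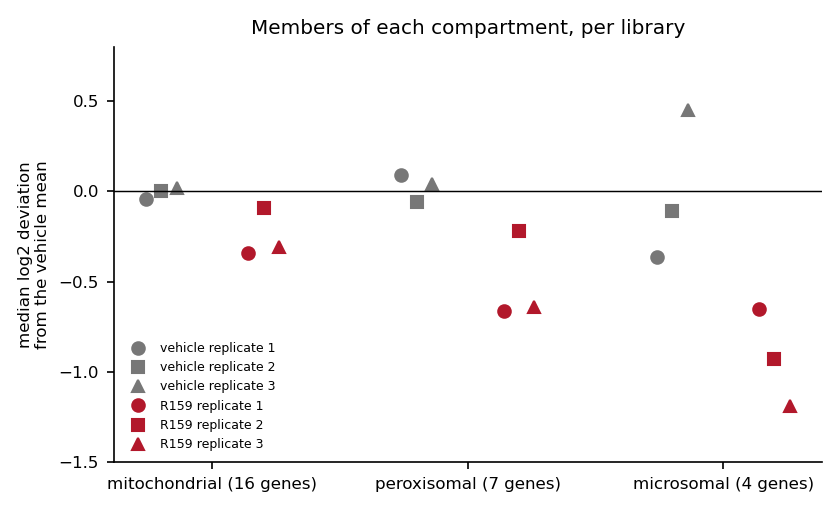
Median over the genes of each compartment (x axis) of the log2 deviation from the vehicle mean (y axis), in each vehicle (grey) and R159 (red) library, with replicate numbers as symbols. R159 libraries lie at -0.34 to -0.09 for mitochondrial, -0.66 to -0.22 for peroxisomal and -1.19 to -0.65 for microsomal genes.

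Levels differ widely among members. Per kb of the longest coding transcript, the vehicle mean was 65259 for Acaa1b, 28881 for Acaa2, 15424 for Hadh and 14217 for Hsd17b4, and the lowest were 203 for Pdk4 and 134 for Cyp4a31. On the same scale Ppara was 1689 in vehicle and 449 in R159. In R159 the order of the most abundant was Acaa1b at 60615 and Acaa2 at 28185 per kb, and for both genes the groups overlapped.

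The promoter windows were searched for the DR1 element, the half-site AGGTCA repeated in 1 orientation with any single base (N) between the copies, on both strands and with up to 2 mismatches. RefSeq gave a window, 250 bases before to 50 after the start, for 23 of the 31 genes. A match was found for 3 of these genes (13.0%), in 3 of the 25 windows that the 23 genes had. The share over all genes was counted by window and not by gene, 3.86% of 32851. A gene with more than 1 window had more chances of a match. Each match is shown as the window reads on the gene's strand (build GRCm38.p6).
Acot4: TGACCTTTGGCCG
Creb3l3: AGGGGAGAGGTCA
Slc25a20: AGGTGAAAGGTCG

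The Acot4 window is chr12:84038129-84038428 on the plus strand, the Creb3l3 window chr10:81092542-81092841 on the minus strand, and the Slc25a20 window chr9:108661886-108662185 on the plus strand. None of these 3 genes was called, with log2 fold changes of -0.92, -0.30 and -0.21, and the windows of Ppara, Hadha, Hadhb and Acot3 held no match at this setting. The other members called lower, Cyp4a10, Cyp4a31 and Vnn1, had no window and were not searched.

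A further 71 genes of the pathway with a row were read in the same fit, and 10 were called lower (14.1%) and 6 higher (8.45%), near or below the shares of all tested genes (14.2% and 12.8%). Their median log2 fold change was -0.11. Acsl1, which activates long-chain fatty acids, gave -0.37 (limma adjusted p = 0.246), and the PPARalpha-induced hormone gene Fgf21 gave 0.42 (95% interval -0.94 to 1.78, adjusted p = 0.63). Fgf21 gave 1.20 without R159 replicate 3 (adjusted p = 0.0496) and -0.28 with the length trend removed (adjusted p = 0.761). It was below 0 in 3 of the 19 alternative fits.

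Rxra, the partner of PPARalpha, and the nuclear receptor cofactor genes Ncor1 (a corepressor) and Ncoa1 (a coactivator) were called lower. They belong to a list of 11 receptor and cofactor genes. Of these, 3 were called lower (27.3%, against 14.2% of all tested genes) and 1 higher (9.09%, against 12.8%). The median of the list was -0.25, and 0.01 with the length trend removed. Rxra was 14116, 12019 and 17136 with R159 against 24300, 25259 and 29012 with vehicle, with no overlap (-0.87, SE 0.19, limma adjusted p = 0.0117). Ncor1 gave -0.99 and Ncoa1 -0.85 (adjusted p = 0.0129 and 0.0104). The transcripts of Rxra, Ncor1 and Ncoa1 are long (4905, 9037 and 7329 nt), and after length correction Ncor1 alone of the 3 was called (-0.48, adjusted p = 0.0323). With length correction and the replicate block together Ncor1 was not called (-0.48, limma adjusted p = 0.05455). Nr1h3, which encodes the sterol receptor LXRalpha, was called higher (0.43, adjusted p = 0.0464; 0.0633 after length correction), a call made in 7 of the 19 alternative fits. With equal totals it gave 0.22 (adjusted p = 0.297), and with the replicate block 0.43 (0.0903).

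Nudt7, which encodes a peroxisomal hydrolase of coenzyme A, was 19960, 29288 and 36796 with R159 against 11071, 10337 and 9340 with vehicle. All R159 libraries lay above all vehicle libraries (1.44, SE 0.23, limma adjusted p = 0.0048; with the length trend removed 1.68 and 0.0044), and it was called in all 19 alternative fits. Acad11, an acyl-CoA dehydrogenase of long-chain substrates, was 13586, 12988 and 12502 with R159 against 19996, 24975 and 27781 with vehicle (-0.88, SE 0.18, limma adjusted p = 0.0091), and was likewise called in all 19. Acot6, a thioesterase gene of the same cluster as Acot3, was low in level and called lower (-1.66, adjusted p = 0.0104). Aldh3a2 and Cyp4v3, microsomal enzymes of fatty aldehyde and fatty acid oxidation, gave -0.79 and -0.65 (adjusted p = 0.0318 and 0.0295). Neither was called with the length trend removed (-0.63 and -0.37, adjusted p = 0.0643 and 0.128) or with upper-quartile scaling (0.056 and 0.0584). Acad10 and Acsl4 were called lower as well, at -0.89 and -0.83 (adjusted p = 0.0413 and 0.0354). With the length trend removed they gave -0.61 and -0.40 (adjusted p = 0.116 and 0.314), and neither was called with quantile normalization (0.0642 and 0.0652) or upper-quartile scaling (0.0636 and 0.063).

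The other genes called higher have short transcripts. Fabp1, the fatty acid binding protein of the hepatocyte cytosol, was 408253, 808194 and 446372 with R159 against 166982, 182026 and 230962 with vehicle, with no overlap (1.46, SE 0.38, limma adjusted p = 0.0229). Its transcript is 553 nt, and after length correction it gave 0.31 (adjusted p = 0.519). Etfa and Etfb, the subunits of the flavoprotein that takes electrons from the acyl-CoA dehydrogenases, gave 0.71 and 0.96 (adjusted p = 0.0465 and 0.016), and after length correction 0.36 and 0.21 (0.152 and 0.305). Acot13, a mitochondrial thioesterase of 721 nt, gave 1.40 (adjusted p = 0.0079; 0.47 and 0.064 after length correction).

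Of the 16 called among these 71 genes, Nudt7, Acad11 and Acot13 kept the call whichever library was left out. Calls over all genes also fell when a vehicle library was left out. From 2354 lower and 2125 higher, they fell to 1252 and 1248 (without replicate 1), 923 and 918 (replicate 2), and 1117 and 1066 (replicate 3). Leaving out vehicle replicate 3 ended 11 of the 16 calls (among them Cyp4v3, Aldh3a2, Acsl4, Acad10, Etfa, Etfb, Fabp1, Rxra, Nr1h3 and Ncor1, limma adjusted p 0.0505 to 0.136). Leaving out vehicle replicate 2 ended 9 (among them Cyp4v3, Aldh3a2, Acad10, Etfa, Etfb, Fabp1, Nr1h3 and Ncoa1, 0.0505 to 0.189), and vehicle replicate 1 ended 8 (among them Acot6, Aldh3a2, Acsl4, Acad10, Etfa, Fabp1 and Nr1h3, 0.0542 to 0.134). Without R159 replicate 2, 6 calls were lost, among them those of Cyp4v3, Acsl4, Acad10, Etfa and Nr1h3 (0.0595 to 0.0917), without R159 replicate 3, 4 were lost, among them those of Aldh3a2, Etfa and Nr1h3 (0.0544 to 0.0979), and without R159 replicate 1 that of Acsl4 (0.0702). No fold change of these genes changed sign in these fits.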

How the data were processed

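The members and gene lists were chosen with earlier results of these data known. Per the labels' protocols, stranded libraries were made from poly(A) RNA and read from both ends for 50 bases. Tools listed, without their roles, in the submitters' processing notes are STAR 2.7.8a, cutadapt, FastQC 0.11.9, R 4.2.3 and DESeq2 under version 3.5, with build mm39; counter, annotation and use of strand are not given there. The deposited values, 1 table per library, are a signal: gene counts that the authors normalised, with fractions. Low values cluster at multiples of 1 step in each library, which gives the estimated depth, but only 67.8% to 76.2% of those below 200 reads came out whole (tolerance 0.02 reads), and count models were left out.

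Of 18720 rows, 16594 had a mean of at least 10 and entered limma 3.58.1 (R 4.3.3) after log2(value + 1); group was the single model term, eBayes used its trend option, and Benjamini-Hochberg adjusted p under 0.05 made a call. Fold changes of low genes are understated on that scale. Transcript length came from GENCODE M21, of another build than mm39, for 82.6% of tested genes; a lowess curve (span 0.3) of each library's deviations on log2 length was subtracted as an alternative, leaving genes without a length as they were. Same-numbered libraries deviated with r = -0.0981, 0.0314 and 0.108, so the numbers were not taken as pairs. All members were named, and of the further list the called genes and, whatever their values, Acsl1, Fgf21 and Fabp1; some genes of that list are counted but not reported here by name. In a simulation of the R159 and vehicle libraries over 16594 genes, 200 genes were given a change. Calls recovered 25% of log2 changes of 1 and 69% of log2 changes of 2. The Benjamini-Hochberg cutoff depends on the share of changed genes, and in the data 27.0% of tested genes were called. These recovery rates therefore need not hold for the data. Figures were drawn with matplotlib 3.10.9.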

Additional observations from a re-analysis of the deposited data

How the results depend on the processing

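In all 19 alternative fits the 7 called members kept a log2 fold change below 0, and Ppara its call. The count of members called lower, 7, was 11 with quantile normalization, 15 with equal totals, 4 with upper-quartile scaling, 3 without the empirical Bayes trend and 13 at an adjusted p of 0.1, and 2 to 8 with a library left out; 1 member, Eci1, was called higher with array weights, and 0 to 1 with a library left out. Equal totals and upper quartiles moved the median of all genes by -0.21 and 0.11; relative to that the member median was -0.41 under both. They moved the mitochondrial median to -0.46 and -0.14, and equal totals the peroxisomal one to -0.73. With a library left out the mitochondrial median ran from -0.35 to -0.18, the peroxisomal from -0.63 to -0.40 and the microsomal from -1.22 to -0.67.

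All genes called lower, 2354, were 1443 without the trend, 1294 with length removed and 1136 with length removed and the replicate block, and 923 to 2909 with a library left out; those called higher, 2125, were 1173 with equal totals and 918 to 2516. Of the further pathway genes, 10 lower became 20 with equal totals, 6 with upper quartiles, 5 without the trend, 4 with length removed (with or without the block), 20 at 0.1, and 3 to 11 with a library left out; 6 higher became 3 with length removed (with or without the block) and 2 to 10. The replicate block alone gave 2033 lower and 1912 higher, with 7 members lower, 6 of them the same. The number of libraries, 3 per group, limits precision. The cause of each change was not tested.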
